A study of Mus musculus with 2 samples.

Results

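Immediate early genes are the genes that a cell transcribes first after a stimulus, before any new protein has been made. The 10 described here are *Fos*, *Fosb*, *Jun*, *Junb*, *Jund*, *Egr1*, *Atf3*, *Ier2*, *Dusp1* and *Nr4a1*, taken by symbol from the 32285 genes counted in 2 single-cell RNA libraries of mouse striatum. All 10 were found in the files, and all 10 passed the filter on low counts that left 15138 genes for testing.

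Both libraries, replicate 1 and replicate 2, were prepared from the dissociated striatum of untreated adult mice of 8 to 10 weeks, and the suspensions were enriched for glia. The labels name the strain C57/Bl6J in one field and C57BL/6NTac in the protocol, and they describe 30 min of digestion at 34 °C with pronase (1 mg/ml). The study's methods add actinomycin D, which blocks transcription, to the recovery, digestion and trituration solutions. They also give another digestion time and a younger age range than the labels, and describe the mice as male. Actinomycin D is not among the label entries used here. No library of undissociated tissue was analysed here, so the levels below describe cells after dissociation and cannot be set against intact tissue. Nothing in the labels says that the libraries came from separate animals, so the p-values cannot be read as a spread between animals. They measure only how far class differences varied between these 2 libraries, after the shift shared by all classes of a library was removed. That spread was pooled over the classes and drawn towards the spread of all tested genes. It is therefore not the variation of a single gene in a single class.

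The libraries held 44597660 and 37982720 UMIs (unique molecular identifiers, which count RNA molecules) in 6978 and 5437 barcodes, of which 12007 cells were analysed. The libraries shared 9 cell barcodes. Cells were clustered without the immediate early genes and named by fixed markers, which gave 9 classes that held 20 or more cells per library. These were oligodendrocyte-like (2405 cells), astrocyte-like (2397), microglia-like (2139), neuroblast-like (1555, cycling progenitors included), endothelial-like (1408), neuron-like (641), oligodendrocyte precursor-like (641), mural-like (553) and macrophage-like cells (171). Every class had all of its markers raised in at least 1 of its clusters. A second oligodendrocyte-like cluster of 724 cells had 3 of 7 markers raised and a median mitochondrial share of 22.3%. Another class, 97 erythroid-like cells, was too small in library 2 to be tested and is used below as a background.

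The members fall into groups by what their proteins do. *Fos*, *Fosb*, *Jun*, *Junb* and *Jund* encode subunits of AP-1, a dimeric transcription factor in which a FOS protein must pair with a JUN protein, whereas JUN proteins can also pair with each other. *Egr1* encodes a zinc finger transcription factor, *Atf3* a bZIP factor of the ATF and CREB family, and *Nr4a1* an orphan nuclear receptor. *Ier2* encodes a small nuclear protein, and *Dusp1* a phosphatase that removes the activating phosphates from MAP kinases. Transcription of such genes is switched on through serum response elements, bound by SRF with its ELK partners, and through cyclic AMP response elements, bound by CREB. The positions of the genes in GRCm38 are chr12:85473890-85477273 for *Fos*, chr7:19302696-19310051 for *Fosb*, chr4:95049034-95052222 for *Jun*, chr8:84974484-84978718 for *Junb*, chr8:70698949-70700616 for *Jund*, chr1:191170296-191218039 for *Atf3*, chr8:84661331-84662852 for *Ier2*, chr17:26505590-26562128 for *Dusp1* and chr15:101254269-101274795 for *Nr4a1*; all are protein-coding. The position of *Egr1* is not given here. In the brain, *Fos* and *Egr1* are best known as marks of recent neuronal activity, but enzymatic dissociation is also known to induce the family.

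Promoter sequence was available for 8 of the 10 members from RefSeq (GRCm38.p6), as the 250 bases before and 50 bases after each start. The RefSeq start is not always the outer end of the gene as positioned above, and in *Fosb*, *Atf3*, *Dusp1* and *Nr4a1* it lies inside the gene as annotated. The 5-base core of the cyclic AMP response element, TGACG, was searched on both strands. It was present in 6 of these 8 windows, against 20.8% of all 32851 promoters in the same table. The site nearest to the start is shown for each of these 6, so that the promoters can be compared, read on the strand of each gene with the match in capitals.
*Fos* (chr12:85473814-85473838, plus strand, core 66 bases before the start): ttccgcccagTGACGtaggaagtcc
*Fosb* (chr7:19310091-19310115, minus strand, 60 bases before): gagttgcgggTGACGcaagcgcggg
*Junb* (chr8:84978840-84978864, minus strand, 106 bases before): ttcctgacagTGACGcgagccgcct
*Nr4a1* (chr15:101266796-101266820, plus strand, 40 bases before, reverse orientation): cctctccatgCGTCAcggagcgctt
*Atf3* (chr1:191183326-191183350, minus strand, 7 bases before, reverse orientation): aatagcattaCGTCAgcctgggatt
*Dusp1* (chr17:26508601-26508625, minus strand, 143 bases before): gtagggcgggTGACGTCAccgcccg

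The *Dusp1* window holds the full palindromic element TGACGTCA, which contains the core on both strands and occurs in 1.79% of all promoters. No core was found in the *Jun* and *Jund* windows. The TATA box TATAAA was found in the windows of *Fos* and *Junb* (13.6% of all promoters) and the GC box GGGCGG in 6 of 8 (35.7%). No window held the AP-1 site TGAGTCA (5.2%) or the CArG core of the serum response element (1.63%). These matches describe letters in short windows and were not tested for binding.

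To compare cell classes, UMIs were summed per library and class and given as CPM, the UMIs of a gene scaled to a total of 1000000 UMIs in that class. In endothelial-like cells, the lining of brain capillaries, 9 of the 10 members had their highest level of the 9 tested classes in both libraries. *Egr1* was the exception, with overlapping levels in neuron-like, endothelial-like and mural-like cells. *Fos* stood at 411 CPM in library 1 and 697 CPM in library 2. Its partner *Fosb* stood at 203 and 317 CPM. Both values of each gene lay above every other class. The JUN subunits behaved alike in this respect, with *Jun* at 852 and 1308 CPM, *Junb* at 683 and 690 CPM and *Jund* at 941 and 1277 CPM. *Ier2* was at 597 and 615 CPM, and *Dusp1* at 410 and 675 CPM. *Atf3* stood at 36.8 and 105.3 CPM. *Nr4a1*, at 62.1 and 73.2 CPM, and *Egr1*, at 104 and 154 CPM, completed the set.

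**Figure D1:**
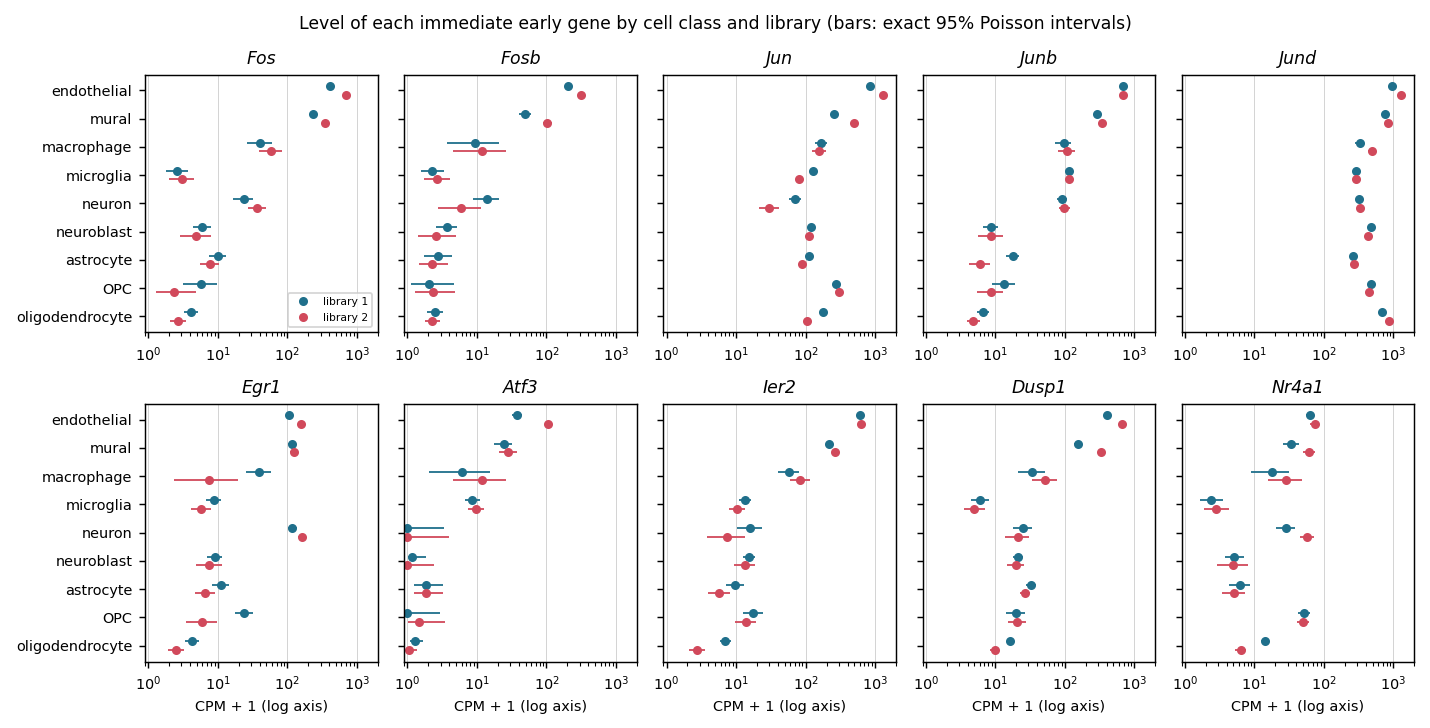
Level of each of the 10 genes in 9 cell classes. The x axis is CPM + 1 on a log scale, points are the 2 libraries, and bars are exact 95% Poisson intervals of the UMI counts (OPC, oligodendrocyte precursor). In endothelial-like cells *Fos* reached 411 and 697 CPM, whereas microglia-like cells held 1.55 and 2.01 CPM.

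Each class was compared with the mean log2 level of the other 8 classes in edgeR by quasi-likelihood, with p-values adjusted after Benjamini and Hochberg over all tested genes. All 10 members were higher in endothelial-like cells, where 26.5% of all genes were called higher. Their median log2 fold change was 4.42, against -0.10 over all genes. *Fosb* had the largest fold, 5.79 ± 0.16 (log2, SE; adjusted p = 1.7e-14), followed by *Fos* with 5.56 ± 0.15 (1.5e-14), *Ier2* with 5.09 ± 0.16 (7.4e-14) and *Atf3* with 4.96 ± 0.23 (2.4e-11). *Dusp1* was higher by 4.44 ± 0.17, *Junb* by 4.39 ± 0.14, *Jun* by 3.0 ± 0.20 and *Egr1* by 2.99 ± 0.24. *Nr4a1* followed with 2.39 ± 0.24, and *Jund* had the smallest fold, 1.38 ± 0.10 (adjusted p = 5.9e-09). All 10 directions were the same in both libraries taken alone.

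Mural-like cells, named for markers of the pericytes and smooth muscle cells that wrap the same vessels, came next. All 10 members were higher than the mean of the other classes, where 23.0% of all genes were called higher, with a median log2 fold change of 3.0 against -0.13 over all genes. *Fos* was at 233 and 350 CPM (log2 fold change 4.39 ± 0.17, adjusted p = 1.2e-12) and *Fosb* at 48.6 and 102 CPM (3.63 ± 0.22). *Ier2* was at 213 and 267 CPM, *Junb* at 289 and 343 CPM, and *Dusp1* at 154 and 332 CPM. For *Fos*, *Fosb*, *Junb*, *Ier2*, *Dusp1* and *Atf3* the mural-like values of both libraries lay below those of endothelial-like cells and above those of every other class. *Atf3* was at 23.2 and 27.3 CPM, *Egr1* at 115 and 125 CPM, and *Nr4a1* at 32.9 and 60.4 CPM. *Jund* was at 762 and 837 CPM, overlapping oligodendrocyte-like cells, and *Jun* at 258 and 490 CPM, overlapping oligodendrocyte precursor-like cells. When each cell was thinned to 1000 UMIs, 7 of 10 were called higher, and *Jun* (0.35, adjusted p = 0.27), *Atf3* (0.81, 0.086) and *Nr4a1* (0.97, 0.053) were not. For thinned cells the share of all genes called is not given, here or below.

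**Figure D2:**
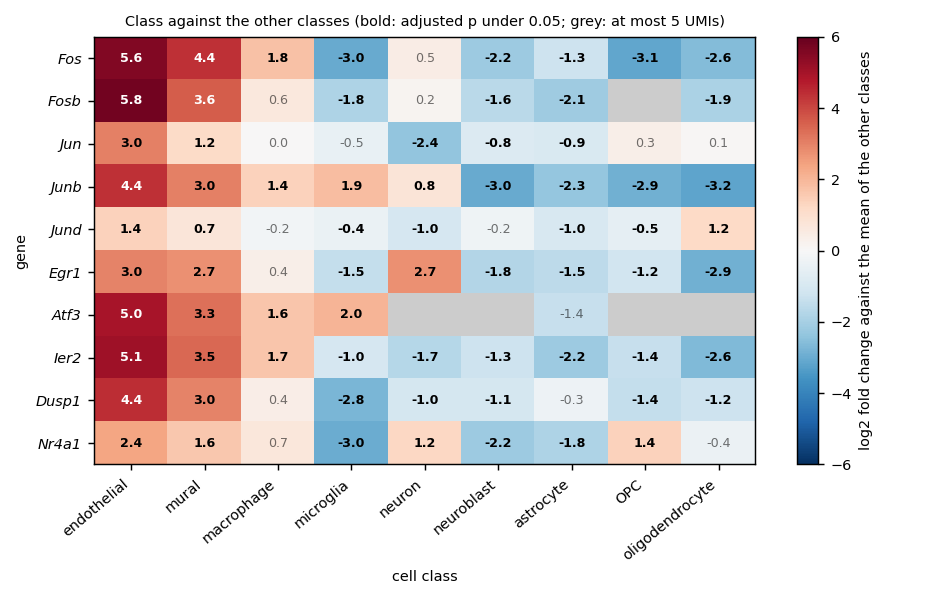
Log2 fold change of each gene (rows) in each class (columns) against the mean of the other classes. Bold values passed an adjusted p of 0.05 in edgeR, and grey cells held at most 5 UMIs. The endothelial-like and mural-like columns are positive for all 10 genes, from 5.79 for *Fosb* to 0.73 for *Jund*.

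Endothelial cells and pericytes touch in the vessel wall, and RNA of endothelial markers was measured in the mural-like cells, whose part in the mural-like levels is described here by values with and without such cells. The 7 endothelial markers (*Cldn5*, *Pecam1*, *Flt1*, *Ly6c1*, *Slco1a4*, *Itm2a* and *Cdh5*) were all detected there, summing to 4887 and 5624 CPM, or 21.5% of their endothelial-like level in each library. The summed members stood at 49.5% and 49.6% of theirs, and *Fos* at 56.7% and 50.2%. In the other 7 tested classes the markers were between 0.11% and 1.82% of the endothelial-like level, with at most 2 of 7 at 0. In the other direction, the 8 mural markers reached 2.00% and 2.40% of their mural-like level in endothelial-like cells.

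**Figure D3:**
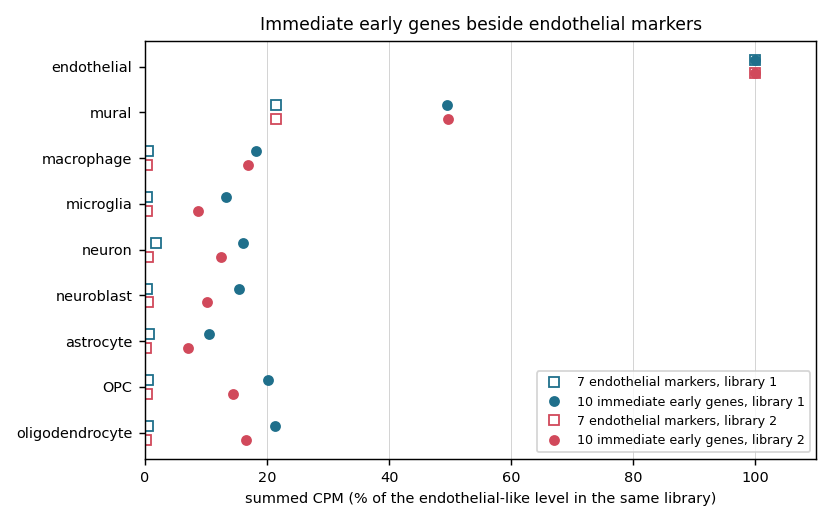
Summed CPM of the 10 immediate early genes (filled circles) and of the 7 endothelial markers (open squares) in each class, as a percentage of the endothelial-like sum in the same library. Mural-like cells held 49.5% and 49.6% of the gene level with 21.5% of the marker level.

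A finer clustering placed part of the mural-like cells, 29 in library 1 and 34 in library 2, in a cluster with 15853 and 16199 CPM of endothelial markers. In these cells *Fos* was at 516 and 674 CPM and *Jun* at 606 and 1144 CPM. Without them, in an alternative chosen after seeing the data, 9 of 10 members were still higher in mural-like cells (19.4% of all genes). *Fos* had a log2 fold change of 3.50 ± 0.21 and *Egr1* of 2.28 ± 0.31. *Jun* was the exception, changing from 1.15 ± 0.23 (adjusted p = 7.4e-04) to -0.21 ± 0.25 (0.60). The cells of this cluster were deep, with medians of 17503 and 12691 UMIs. Leaving them out took the mural-like sum from 1853641 to 1310600 UMIs in library 1 and from 1574075 to 1059275 UMIs in library 2. The call of *Jun* in mural-like cells therefore depended on this cluster, which was small in cells but not in UMIs.

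Mural-like cells without a single endothelial marker UMI were described on their own. There were 159 of them in library 1 and 132 in library 2. *Fos* was at 146 CPM (exact 95% Poisson interval 118 to 178) and 150 CPM (120 to 186), against 282 and 462 CPM in the mural-like cells that held such UMIs. *Junb* was at 206 and 180 CPM and *Egr1* at 112 and 70.7 CPM. Cells without marker UMIs were also shallower, with medians of 2297 and 3208 UMIs against 5119 and 7805. Their *Fos* level lay below that of the remaining mural-like cells and above the values of all 7 non-vascular classes, which ranged from 1.34 to 57.6 CPM.

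Within the finer clusters, the smooth muscle genes *Acta2*, *Tagln* and *Myh11* led one mural-like cluster of 61 and 54 cells and the pericyte genes *Vtn*, *Kcnj8* and *Abcc9* another of 187 and 133 cells. *Fos* was at 178 and 266 CPM in the former and 80.7 and 153 CPM in the latter. *Egr1* was at 122 and 128 CPM against 51.2 and 75.2 CPM. Both mural-like clusters thus held *Fos* and *Egr1*, with the higher values in the cluster led by smooth muscle genes in each library. The cells of that cluster were also deeper, with medians of 9681 and 9291.5 UMIs against 2127 and 2125. Neither the differences between these clusters nor the part of depth in them was tested. With the finer clustering the mural-like class held 277 and 221 cells, against 311 and 242 in the class tested above. A finer cluster of 34 and 21 cells, led by *Dcn*, *Igfbp2* and *Igf2*, took no name. The tested mural-like class is thus not made up of pericytes and smooth muscle cells alone.

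Endothelial-like and mural-like cells together made up 16.5% and 16.2% of the analysed cells and 12.1% and 11.3% of the UMIs. They held 90.03% (1815 of 2016; exact 95% binomial interval 88.6 to 91.3%) and 93.7% (92.7 to 94.6%) of all *Fos* UMIs of the libraries. For *Fosb* the shares were 90.2% and 94.8%, and for *Ier2* 85.6% and 90.3%. *Dusp1* followed with 72.1% and 84.0%, *Atf3* with 71.4% and 83.7% and *Junb* with 69.4% and 70.9%. *Egr1* had 55.4% and 65.3% of its UMIs in vascular cells, *Jun* 37.6% and 53.4%, and *Nr4a1* 39.9% and 46.6%. *Jund* stood at the other end with 19.9% and 19.6%, so that most *Jund* RNA of these libraries came from non-vascular cells. The intervals cover counting error only.

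Endothelial-like cells were not uniform. To compare cells at one depth, each was thinned to 1000 UMIs and shallower cells were left out, which kept 611 and 484 endothelial-like cells of 809 and 599. Of these, 16.9% in library 1 (exact 95% interval 14.0 to 20.1%) and 14.0% in library 2 (11.1 to 17.5%) held no UMI of any member, and 33.1% and 44.0% held 5 or more. The median cell held 2 and 4 member UMIs, and the highest 31 and 34. The 10% of cells with the most member UMIs held 37.5% and 33.5% of all. Mural-like cells had 5 or more in 7.58% and 16.2% of cells, and no other tested class exceeded 4.0%.

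**Figure D4:**
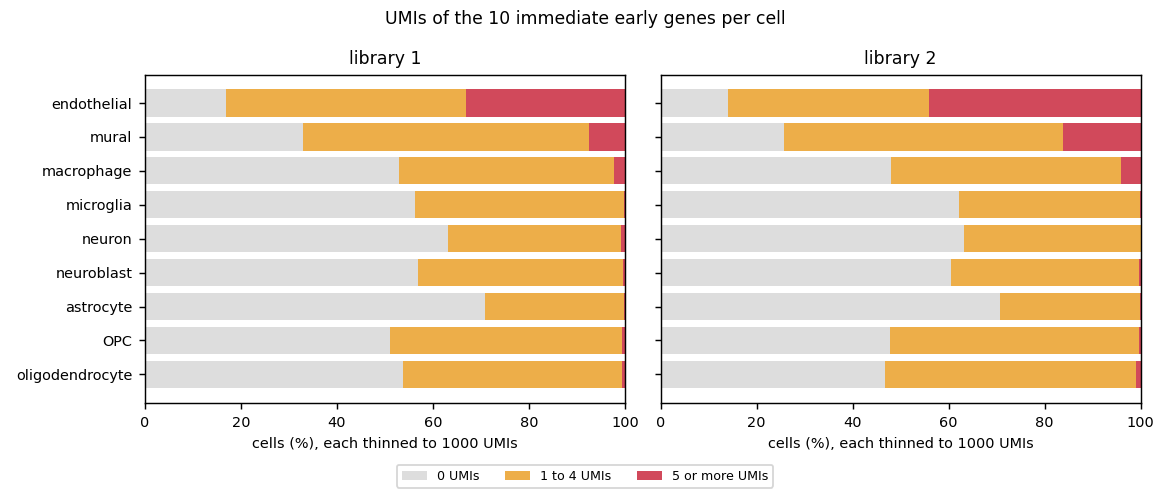
Share of cells (x axis, %) by the number of UMIs of the 10 genes they held after thinning to 1000 UMIs, for each class and library. Cells with 5 or more UMIs (red) made up 33.1% and 44.0% of the endothelial-like cells.

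The members were detected in the same endothelial-like cells. After thinning to 2000 UMIs, *Fosb* was found in 55.8% (86 of 154; exact interval 47.6 to 63.8%) of the cells of library 1 with a *Fos* UMI and in 12.9% (39 of 303; 9.32 to 17.2%) of those without. In library 2 the shares were 58.1% (90 of 155) and 15.1% (38 of 251). *Egr1* was found in 27.3% and 40.6% of cells with *Fos* and in 8.25% and 5.18% of those without. *Nr4a1*, found in 22.7% and 23.9% of cells with *Fos* and in 3.96% and 5.58% without, showed the same split. Across the 457 and 406 cells, all 45 pairs of members had a Pearson correlation above 0 in both libraries, with medians of 0.32 and 0.36. The highest were *Junb* with *Ier2* in library 1 (0.56) and *Fos* with *Junb* in library 2 (0.55). All points of a library share one suspension and one depth, and the values are given as a description. In mural-like cells the medians were 0.18 in both libraries.

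**Figure D5:**
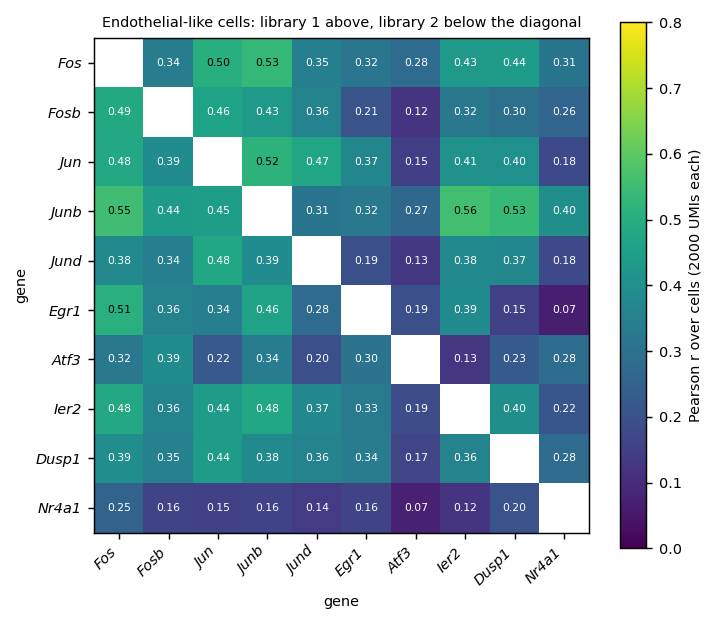
Pearson correlation of the UMI counts of each pair of genes over endothelial-like cells, each thinned to 2000 UMIs, with library 1 above and library 2 below the diagonal. All 45 pairs are above 0 in each library, with medians of 0.32 and 0.36.

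Without thinning, 30.0% of endothelial-like cells in library 1 (interval 26.9 to 33.3%) and 35.9% in library 2 (32.05 to 39.9%) held a *Fos* UMI, at median depths of 2674 and 3252 UMIs. Among erythroid-like cells, which carry almost no RNA but that of haemoglobin, 1 of 86 cells did in library 1 (1.16%) and 0 of 11 in library 2, which allows a share of up to 28.5%, at median depths of 8902 and 6838 UMIs. Microglia-like cells held *Fos* in 0.986% and 1.08% of cells at median depths of 6937 and 5504 UMIs. The endothelial-like shares lay above those of both classes.

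The level within endothelial-like cells varied with the depth of the cell. The summed members were at 1860 and 3396 CPM in cells under 1000 UMIs, 4376 and 4951 CPM at 1000 to under 3000 UMIs, and 4897 and 5906 CPM at 3000 to under 10000 UMIs. Above that, library 1 fell to 3673 CPM and library 2 reached 6794 CPM. In mural-like cells the sum went from 1084 and 1117 CPM under 1000 UMIs to 2639 and 3740 CPM at 10000 UMIs or more, in which the cells with endothelial markers are included. The part of depth in these levels was not tested.

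Library 2 was higher than library 1 for 10 of 10 members in endothelial-like cells, by ratios of 1.01 for *Junb* and 1.03 for *Ier2* up to 1.70 for *Fos* and 2.86 for *Atf3*. With 1 library on each side there is no test of this difference. In astrocyte-like cells 9 of 10 ratios were below 1, for example 0.83 for *Dusp1* and 0.73 for *Fos*. The share of all genes that differed in the same direction is not given for either class. Other genes differed between the libraries too. In endothelial-like cells the endothelial markers summed to 22744 and 26134 CPM and the oligodendrocyte markers to 2596 and 864 CPM. These counts are therefore not read as a trait of the members.

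Macrophage-like cells, which sit around vessels and in the meninges, were the only non-vascular class in which 0 members were called lower (15.4% of all genes). *Fos* was at 40.01 and 57.6 CPM (log2 fold change 1.75 ± 0.34, adjusted p = 6.3e-04), *Ier2* at 56.7 and 83.2 CPM (1.67 ± 0.33) and *Junb* at 95.0 and 107 CPM (1.39 ± 0.26). *Atf3* was also called higher, on 8 UMIs (1.64 ± 0.52, adjusted p = 0.023). These 4 of 10 compare with 17.7% of all genes called higher in this class. In library 2, *Fos* was at 18.1 CPM in the 57 macrophage-like cells without an endothelial marker UMI and at 153 CPM in the 20 cells with one, whereas in library 1 the values were 46.1 and 28.7 CPM. When every cell was thinned to 1000 UMIs, the *Fos* fold fell to 0.01 (adjusted p = 0.87) and *Atf3* to -1.07 (adjusted p = 1.0), and neither was called. *Ier2* and *Junb* passed the test at that depth too.

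Microglia-like cells, the resident immune cells of the tissue, split the family. *Junb* was at 114 and 115 CPM (1.86 ± 0.17, adjusted p = 4.6e-08) and *Atf3* at 7.61 and 8.77 CPM (2.04 ± 0.26, 4.9e-06), both higher than the mean of the other classes (2 of 10 members, 34.3% of all genes). Against this, 7 of 10 were lower, where 22.7% of all genes were. *Fos* was at 1.55 and 2.01 CPM (-3.03 ± 0.35), *Nr4a1* at 1.41 and 1.83 CPM (-2.96 ± 0.42) and *Dusp1* at 5.07 and 4.02 CPM (-2.76 ± 0.33). This *Fos* level was 0.38% and 0.29% of the endothelial-like one, and the endothelial markers were at 0.31% and 0.25% of theirs. The part of RNA from other cells in so low a level was not tested. *Jun*, at 126 and 78.6 CPM, did not pass the test.

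Microglia-like cells comprised a deep cluster of 1637 cells and a shallow one of 502 cells, whose medians were 1196 and 1312 UMIs in the libraries, led by the chemokine gene *Ccl4*. *Junb* was at 117 and 118 CPM in the deep cluster and 73.3 and 65.8 CPM in the shallow one. *Egr1* was at 6.76 and 4.06 CPM against 22.9 and 16.4 CPM. *Fos*, at 1.35 and 1.55 CPM against 4.58 and 9.86 CPM, stayed far below the vascular classes in both. Both clusters together held only 22 *Fos* and 81 *Egr1* UMIs, so the values of the shallow cluster rest on few counts. Endothelial markers were at 192 and 148 CPM in the shallow cluster against 62.2 and 59.6 CPM in the deep one. The differences between these clusters were not tested. To count *Ccl3* and *Ccl4*, cells were thinned to 2000 UMIs and shallower cells left out, which removed most of the shallow cluster. Of the cells kept, 5 in all held 3 or more UMIs of *Ccl3* and *Ccl4*, too few to describe the members in them. This count does not give the share of such cells among all microglia-like cells.

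Neuron-like cells had members called in both directions, the higher calls at a share near that of all genes. *Egr1* was at 117 and 161 CPM, the highest mean of the 9 tested classes, although its range overlapped that of endothelial-like cells. Its log2 fold change was 2.74 ± 0.27 (adjusted p = 2.1e-07). *Nr4a1*, at 27.2 and 57.0 CPM (1.23 ± 0.30, adjusted p = 2.4e-03), and *Junb*, at 89.4 and 97.1 CPM (0.79 ± 0.20, 3.1e-03), were the other members called higher (3 of 10, against 26.2% of all genes). *Fos*, at 22.7 and 36.1 CPM, and *Fosb*, at 12.96 and 4.81 CPM, did not pass. *Fos* was called higher with library sizes alone, with all detected genes in the fit, in DESeq2, and in cells under 20% mitochondrial UMIs. *Jun* was at its lowest of the 9 tested classes, 69.3 and 28.9 CPM (-2.35 ± 0.33, adjusted p = 1.4e-05). *Jund*, *Ier2* and *Dusp1* were also lower. *Dusp1* lost its call with library sizes alone (adjusted p = 0.098, edgeR), in thinned cells (0.059, edgeR) and in DESeq2 (0.061). *Atf3*, with 0 UMIs in either library, was called lower too (-2.99 ± 1.05, adjusted p = 0.024, edgeR), so that 5 of 10 were called lower (29.8% of all genes). That *Atf3* call rests on no count in the class. *Atf3* was not called in neuroblast-like cells (1 UMI), oligodendrocyte precursor-like cells (1) or oligodendrocyte-like cells (5). In cells thinned to 1000 UMIs *Egr1* was the single member called higher and 3 were lower, whereas *Nr4a1* (0.80, adjusted p = 0.079) and *Junb* (0.49, 0.060) did not pass. A total of 0 *Atf3* UMIs in 1543319 and 1246238 allows up to 1.94 and 2.41 CPM. With the finer clustering the neuron-like class held 192 and 171 cells, against 381 and 260 here, and the same members were called. A finer cluster of 757 and 309 cells, named astrocyte-like, also had 9 neuron markers raised.

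Neuron-like cells held 1.82% and 0.43% of the endothelial-like marker level. In those with no endothelial marker UMI, *Egr1* was at 104 CPM (84.2 to 128) and 168 CPM (141 to 200), and these intervals overlapped those of the cells that had one (133 and 149 CPM). *Fos* was at 12.5 and 16.7 CPM in the former and 36.2 and 68.3 CPM in the latter. For *Fos* the intervals did not overlap in either library, but they cover counting error only and not the spread between cells. They are no test of a difference between these groups of cells. Among all neuron-like cells, the 29 and 24 cells of 10000 UMIs or more had *Fos* at 34.5 and 68.0 CPM. In shallower cells it was at most 24.0 and 13.6 CPM. The neuron-like cells without marker UMIs were also shallower, with medians of 2157 and 2276 UMIs against 3396 and 3925. The part of depth in this difference was not tested.

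In oligodendrocyte precursor-like cells *Nr4a1*, at 50.4 and 49.4 CPM (1.40 ± 0.26, adjusted p = 3.3e-04), was the single member called higher (25.6% of all genes). Its level lay below that of endothelial-like cells (62.1 and 73.2 CPM). It overlapped the levels of mural-like (32.9 and 60.4 CPM) and neuron-like cells (27.2 and 57.0 CPM). With the finer clustering the precursor-like class held 445 and 469 cells, against 300 and 341 here. It then included a cluster of 145 and 128 cells led by *9630013A20Rik*, *Bmp4* and *Fyn*. The mean *Nr4a1* level of that wider class was lower, and the call was kept. *Jun* was at 271 and 301 CPM and did not pass the test against the mean of all other classes. The other 7 called members were lower (22.8% of all genes), with *Fos* at 4.68 and 1.34 CPM (-3.12 ± 0.41) and *Junb* at 12.5 and 7.57 CPM (-2.90 ± 0.30). Of these, *Egr1* (-1.16 ± 0.42, adjusted p = 0.033) was at 22.9 CPM in library 1 and 4.90 CPM in library 2 and lost its call without the library as a block (adjusted p = 0.058). *Jund*, at 467 and 450 CPM, was called lower (-0.55 ± 0.12) but not when the sums were scaled by library sizes alone (-0.08, adjusted p = 0.63). *Jun* was called higher in these cells with library sizes alone, with all detected genes in the fit, and when cells were thinned to 1000 UMIs.

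Oligodendrocyte-like cells, named for markers of the myelinating glia, held *Jund* at 691 and 848 CPM, above every other non-vascular class (1.19 ± 0.10, adjusted p = 3.2e-08). It was the single member called higher in them (35.0% of all genes), and 6 of 10 were lower (23.5%). *Junb* was at its lowest of the 9 tested classes, 5.69 and 3.87 CPM (-3.16 ± 0.25), as were *Egr1* at 3.25 and 1.47 CPM (-2.90 ± 0.38) and *Ier2* at 5.96 and 1.73 CPM (-2.63 ± 0.28). The cluster rich in mitochondrial RNA had *Jund* at 277 and 225 CPM against 732 and 878 CPM in the other cluster. Its cells were also shallower, with medians of 2509.5 and 2558 UMIs against 16382 and 13469. The part of depth in this difference was not tested. With the finer clustering the oligodendrocyte-like class held 1081 and 1051 cells, against 1226 and 1179 here, while the precursor-like class grew.

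In astrocyte-like cells, the supporting glia that the study set out to describe, 8 of 10 members were lower (24.8% of all genes) and 0 higher (29.0%). *Fos* was at 9.12 and 6.66 CPM (-1.26 ± 0.30), *Junb* at 16.9 and 4.94 CPM (-2.33 ± 0.26) and *Jund* at 257 and 273 CPM, its lowest level of the 9 tested classes (-0.98 ± 0.13). *Dusp1*, at 31.5 and 26.0 CPM, did not pass the test. Neuroblast-like cells also had 8 of 10 lower (28.3%) and 0 higher (30.3%), with *Fos* at 4.89 and 3.87 CPM (-2.16 ± 0.33) and *Junb* at 7.56 and 7.73 CPM (-3.03 ± 0.28). Thinned to 1000 UMIs per cell, neuroblast-like cells had 4 members called lower, *Jun*, *Fosb*, *Junb* and *Fos*. In astrocyte-like and neuroblast-like cells the count of lower calls depended on the vascular classes being part of the mean, as given below. In all 4 classes of the glial and neuroblast lineages, *Fos* stayed under 10 CPM in each library. As a share of the endothelial-like level, *Fos* was at 2.22% and 0.96% in astrocyte-like cells (endothelial markers 0.62% and 0.19%). It was at 0.76% and 0.24% in oligodendrocyte-like cells (0.42% and 0.11%) and 1.14% and 0.19% in precursor-like cells (0.50% and 0.33%). In neuroblast-like cells it was at 1.19% and 0.56% (0.38% and 0.48%). The part of RNA from other cells in these levels was not tested.

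Over the 9 classes and 10 members, 31 of 90 pairs were called higher (27.5% of all gene and class pairs) and 41 lower (22.8%). The lower pairs include *Atf3* in neuron-like cells, which had 0 UMIs. The count of lower calls depended on the vascular classes being part of the mean. When endothelial-like and mural-like cells were left out of it, in an alternative chosen after seeing the data, 18 pairs were lower and 38 higher. In astrocyte-like cells 4 members were then lower and 1 higher, and in neuroblast-like cells 2 and 0. The counts were 3 and 2 in microglia-like, 3 and 2 in oligodendrocyte precursor-like, 4 and 2 in oligodendrocyte-like and 2 and 5 in neuron-like cells. Of all genes, 17.7% to 29.4% were then called lower and 18.9% to 34.8% higher, depending on the class. The endothelial-like and mural-like calls numbered 10 of 10 each (27.2% and 24.5% of all genes). In macrophage-like cells 6 members were then higher (18.9% of all genes), with *Fos* at 3.29 ± 0.38 and *Dusp1* at 1.54 ± 0.43. In neuron-like cells *Fos* (1.96 ± 0.30) and *Fosb* (1.57 ± 0.41) joined *Egr1* (3.69 ± 0.29), *Junb* and *Nr4a1* (25.9% of all genes). *Fosb* rested on 26 UMIs in this class. It was at 3.40 and 2.57 CPM in neuron-like cells without an endothelial marker UMI, against 25.7 and 8.54 CPM in those with one. *Fos*, as given above, was also lower in the cells without one, and the part of these cells in the 2 calls was not tested. *Jun* was higher in oligodendrocyte precursor-like cells (0.96 ± 0.24) and oligodendrocyte-like cells (0.69 ± 0.24), and *Dusp1* in astrocyte-like cells (0.76 ± 0.25, adjusted p = 0.018).

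Across the 18 sums of library and class, *Fos* followed *Fosb* (Pearson r of log2(CPM + 1) 0.96) and *Dusp1* (0.94) most closely, whereas *Jund* with *Egr1* (0.29) and *Junb* with *Jund* (0.33) were the least alike. The sums of a library share one suspension, and the values are given as a description. Outside the listed response genes, those most like *Fos* were *Ecm1* (0.98), *Egfl7* (0.96) and *Cd40* (0.95). *Fosb* was closest to *Mill2*, *Egfl7* and *Slc19a3*, *Junb* to *Isyna1*, *Acvrl1* and *Prkch*, and *Ier2* to *Prkd2*, *4930555A03Rik* and *Slfn5*. For *Dusp1* they were *Lef1*, *Lsr* and *Scarf1*. *Egr1* was closest to *Rapgef4*, *Pcp4l1* and *Etl4*, *Nr4a1* to *Pop5*, *Ebf1* and *Dipk1a*, *Jun* to *Max*, *Prrg2* and *Uqcc3*, and *Jund* to *Phc2*, *Ybx3* and *Jmy*. *Egfl7*, an endothelial gene, was at 1388 and 1365 CPM in endothelial-like cells and at most 298 CPM elsewhere.

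Other genes of the same response were counted from fixed lists. Of 21 tested further immediate early transcription factors, 15 were higher and 1 lower in endothelial-like cells, where 26.5% and 20.0% of all genes were, and 18 were higher and 0 lower in mural-like cells (23.0% and 17.7%). *Klf2*, a flow-induced factor of endothelium, was at 1758 and 3522 CPM in endothelial-like cells (log2 fold change 6.50 ± 0.30), and *Klf4* at 660 and 871 CPM (5.90 ± 0.22). In mural-like cells *Klf2* had a fold of 4.10 ± 0.32 and *Klf4* of 3.79 ± 0.26. *Klf2* was also among the 10 leading genes of the endothelial-like cluster.

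Of 35 tested early regulators and effectors, 27 were higher and 1 lower in endothelial-like cells (26.5% and 20.0% of all genes), and 21 and 1 in mural-like cells (23.0% and 17.7%). *Ccn2*, a matrix-associated growth regulator, was at 154 and 111 CPM in endothelial-like cells (5.59 ± 0.35) and at 206 and 365 CPM in mural-like cells (6.75 ± 0.34). *Ier3*, which limits apoptosis, had a fold of 4.39 ± 0.13 in endothelial-like cells, and *Sik1*, a kinase that restrains CREB signalling, had 3.76 ± 0.22 in mural-like cells. The medians over this list were 2.11 and 0.96 in the 2 classes, against -0.10 and -0.13 over all genes.

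The 23 upstream signal transducers, the kinases and factors that act on existing protein, had another order of classes. Microglia-like cells had the most called higher, 14 with 4 lower (34.3% and 22.7% of all genes). In endothelial-like cells 12 were higher and 1 lower (26.5% and 20.0%), and in mural-like cells 9 and 0 (23.0% and 17.7%). *Elk3*, an SRF partner, was at 133 and 155 CPM in endothelial-like cells (3.67 ± 0.13) and higher by 1.77 ± 0.18 in mural-like cells. *Mrtfb*, an SRF coactivator, had a fold of 2.68 ± 0.16 in the former, and its relative *Mrtfa* 1.00 ± 0.20 in the latter. In astrocyte-like cells 0 of 23 were higher and 16 lower (29.0% and 24.8%).

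A list of 12 genes of heat shock proteins and their partners, not all of them induced by stress, followed another order. In oligodendrocyte-like cells 10 of 12 were higher and 1 lower (35.0% and 23.5% of all genes), and in neuroblast-like cells 7 and 2 (30.3% and 28.3%). Endothelial-like cells had 7 higher and 4 lower (26.5% and 20.0%), and mural-like cells 5 and 2 (23.0% and 17.7%). *Hspb1*, a small chaperone, was at 2233 and 1154 CPM in endothelial-like cells (6.63 ± 0.14) with a fold of 6.18 ± 0.14 in mural-like cells. *Hspa1a*, the stress-induced HSP70, was at 32.1 and 28.4 CPM (2.76 ± 0.41) and 48.6 and 57.8 CPM (3.56 ± 0.41). Oligodendrocyte-like cells, with 1 of the 10 immediate early genes called higher, thus had the most heat shock genes called higher. The list had a median log2 fold change of 0.80 in them. With library sizes alone the median of all genes in this class moved from -0.02 to -0.43, and the list was not counted under that scaling.

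Of 10 tested genes of the microglial ex vivo response, such as *Ccl3*, *Ccl4* and *Il1a*, 7 were higher in microglia-like cells (34.3% of all genes) and 7 in macrophage-like cells (17.7%). In endothelial-like cells 5 were higher (26.5%) and in mural-like cells 4 (23.0%). In endothelial-like cells *Cd83* (1.89 ± 0.17) and *Tnfaip3*, an inhibitor of NF-kB signalling (1.65 ± 0.22), had the largest folds, and in mural-like cells the GTPase gene *Gem* (2.75 ± 0.32) and *Tnfaip3* (1.14 ± 0.26).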

How the data were processed

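Single-cell RNA was measured in 2 droplet libraries of adult mouse striatum. The authors deposited raw UMI counts per gene and cell, made with Cell Ranger 4.0 per the labels (build mm10), without normalization. A read is counted once per UMI, so PCR copies do not add to a level. The cell types of the study were rebuilt here from the counts, so differences from its classes may come from the naming.

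Cells with at least 300 genes were kept and doublets marked by Scrublet (scanpy 1.11.5, expected share 6%) removed, which were 96 barcodes (1.39%) in library 1 and 159 (2.96%) in library 2. The libraries held 44597660 and 37982720 UMIs, with a median of 3852 and 5375 per barcode. Cells were integrated and clustered in Seurat 5.3.0 (2000 variable genes without the 114 listed response genes, 30 components, resolution 0.08) and named where at least 3 markers were raised 2-fold. UMIs were summed per library and class. Each of 9 classes was compared with the mean of the other 8 in edgeR 4.0.16 (TMM factors, quasi-likelihood test, library as a block, prior count 2, Benjamini-Hochberg adjustment over 15138 genes, threshold 0.05). The block follows from the design, since the classes within a library share one suspension. The SE given with a fold was back-computed as the absolute log2 fold change divided by the square root of the F statistic of the quasi-likelihood test. It is not a directly estimated standard error. Levels are CPM, scaled to a total of 1000000 UMIs per sum, with exact 95% Poisson intervals, which cover counting error only, and shares have exact 95% binomial intervals. An upper limit for 0 UMIs was set at 3 counts. No test between the libraries was possible. The fit was tested on simulated data.

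The 10 members, the markers and the other gene lists were chosen with earlier results of these data known. All members are named. From each other list, at most 2 genes are named per vascular class, those with the largest fold change among genes that passed the test with one direction in both libraries. The genes most like a member are the 3 with the highest correlation outside the lists. *Atf3* was not detected in every class and has none. Alternatives included DESeq2 1.42.0, library sizes alone, other filters, and cells thinned to 1000 UMIs.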

Additional observations from a re-analysis of the deposited data

How the results depend on the processing

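The counts of 31 higher and 41 lower pairs of member and class stayed between 25 and 38 and between 18 and 43 over the alternatives. The lowest number of lower pairs, 18, came from leaving endothelial-like and mural-like cells out of the mean, an alternative chosen after seeing the data, in which the reference itself changes. There *Fos* in astrocyte-like cells went to 0.17, *Ier2* in microglia-like cells to 0.21, *Dusp1* in neuroblast-like cells to 0.0038 and *Dusp1* in neuron-like cells to 0.023 (log2), from negative values, and none of these was called. Thinning each cell to 1000 UMIs gave 25 higher and 31 lower pairs, with *Atf3* in macrophage-like cells at -1.07, and mural-like *Jun* at 0.35 (adjusted p = 0.27, edgeR). Without the mural-like cells rich in endothelial markers, also chosen after seeing the data, mural-like *Jun* was at -0.21. Without the replicate block 31 pairs were higher and 40 lower. DESeq2 gave 32 and 43, and library sizes alone 33 and 40. Without replicate 1 and without replicate 2, all 31 and 41 pairs kept the sign of their edgeR fold change, as values with no test. With library sizes alone the median of all genes shifted from -0.10 to 0.35 in oligodendrocyte precursor-like cells and from -0.02 to -0.43 in oligodendrocyte-like cells. Depth limits most what can be said of *Atf3*, with at most 8 UMIs in macrophage-like and astrocyte-like cells, and of the 171 macrophage-like cells.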
